A study of Mus musculus with 8 samples.

Results

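The MLL, menin and COMPASS genes were 10 genes named for their place in one chromatin pathway: Kmt2a, Kmt2b, Men1, Psip1, Wdr5, Ash2l, Rbbp5, Dpy30, Dot1l and Mllt3. They were taken by symbol from the 37980 gene rows of the expression table, and all 10 were among the 11451 genes tested, which reached 10 normalised counts in 4 or more of the 8 libraries. Their mRNA was measured in multipotent progenitors (MPPs), blood progenitors that give rise to all lineages but renew themselves for a limited time, sorted from C57BL/6 mouse bone marrow as Lin-CD48-ckit+Sca1+CD135+CD150- cells. The 4 NA libraries (NA1 to NA4) came from NA LSL/+; Vav-Cre mice. In these mice the NUP98-HOXA10hd (NA) fusion, the amino-terminal part of the nucleoporin NUP98 joined to the homeodomain of HOXA10, lies in the Rosa26 locus behind a loxP-flanked stop, and Vav-Cre removes that stop in blood cells from early development on. The 4 WT libraries (WT1 to WT4) came from age-matched CD45.2 wild-type mice. The ages are not given, the labels do not say that WT mice carried Cre, and they do not say that each library came from its own animal, so the p-values measure the spread between libraries, which may be technical. Each library was made from 1000 sorted cells by whole-cDNA amplification.

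Kmt2a encodes MLL1, a methyltransferase that places methyl groups on H3K4 at promoters and keeps Hoxa genes active in haematopoietic stem cells, and Kmt2b encodes its closest paralogue. Menin, the product of Men1, binds the amino terminus of both enzymes and joins them to LEDGF, the product of Psip1, which reads H3K36 methylation along transcribed genes. Wdr5, Rbbp5, Ash2l and Dpy30 encode the core subunits that every SET1/MLL complex (COMPASS) shares and needs for full catalysis, Dot1l encodes the H3K79 methyltransferase, and Mllt3 encodes AF9, which reads acylated H3 and carries DOT1L and the elongation machinery to chromatin. NUP98 fusions with HOX homeodomains keep the same Hoxa genes on.

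Kmt2a, Psip1 and Mllt3 rose in NA MPPs, by 1.54, 1.69 and 1.47 times over the WT means, and the other 7 genes did not pass the test in either direction. The 3 that rose are a methyltransferase, a chromatin adaptor and a DOT1L partner. None of the 4 core subunits was called. The 3 that rose also had the highest mean counts of the 10 genes. Among all genes tested, their percentile ranks of level were 92.5 (Psip1), 91.7 (Mllt3) and 90.6 (Kmt2a). The other 7 ranked from 60.4 (Dpy30) to 86.4 (Wdr5), and the part of level in which genes passed was not tested. The median log2 difference over the 10 genes was -0.08, beside -0.01 over all genes tested. Here a gene is called when its adjusted p falls below 0.05 in limma on log2(normalised count + 1), with Benjamini-Hochberg adjustment over all 11451 genes, and a positive difference means higher in NA MPPs. Of all genes tested 17.9% were called, 10.1% higher and 7.87% lower, so 3 of 10 higher and 0 of 10 lower are set against those shares. The NA and WT libraries did not overlap for the same 3 genes, all with NA higher, a pattern seen in 11.5% of all genes (NA lower in 10.5%). In bulk samples, fewer cells of a type and less RNA per cell cannot be told apart. The higher share of all called genes was 56.1% here and 41.3% when libraries were scaled to equal totals.

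Several features of the libraries moved with genotype across the series. Xist stood at 0.94 to 2.80 normalised counts in NA libraries and at 869 to 1285 in WT libraries, while Eif2s3y stood at 516 to 666 in NA libraries and at no more than 0.888 in WT libraries, so sex and genotype cannot be told apart. All 10 genes lie on autosomes. Of 8 tested genes of the dissociation response (of 10 listed, such as Fos and Egr1), 7 were higher in NA MPPs, with a summed level of 34334 to 39148 normalised counts against 3530 to 10174 in WT MPPs, and the part of this response in the results below was not tested. The progenitor markers Kit, Ly6a, Flt3, Cd34 and Ptprc summed to 8994 to 9832 in NA and 9640 to 9981 in WT libraries, with Ly6a called lower. Granulocyte and monocyte markers summed to 3117 to 3361 in NA and 3550 to 4584 in WT libraries, with Elane at 0 throughout and 2 of 4 tested called lower. The other marker lists (gate-negative, erythroid, megakaryocyte, mast cell and basophil, B cell, T and NK cell, stroma and endothelium) summed to no more than 269 normalised counts in any library. Among them Fcer1a, Mcpt8, Pax5, Cd3e, Cd3g, Cd8a, Il2rb and Cdh5 were at 0, and 1 gene of the 7 lists, Cd48, was called, lower in NA MPPs. Estimated depth ran from 3876893 to 4916987 reads. NA4 and WT4 lay closest to a weighted sum of the other 3 libraries of their own genotype. Their residual SDs were 0.193 and 0.131 on the log2 scale, beside 0.240 to 0.354 for the other 6. Whether NA4 and WT4 are independent of the other libraries was not tested, so the calls of the named genes are also given without them. The SDs, intervals, shares of non-overlap and permutation tests count all 4 libraries per genotype. Without NA4 and WT4 the SE of each of the 10 genes was larger, at 0.164 against 0.116 for Rbbp5.

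The promoter windows of Kmt2a and Mllt3 are shown because they belong to genes that rose, and that of Men1 because its product binds MLL1 while its own mRNA did not pass the test. Each is the 250 bases before the RefSeq start on the gene's strand (GRCm38.p6), with every CG in capitals. RefSeq promoter entries matched 7 of the 10 genes and did not match Kmt2b, Psip1 and Ash2l. The Kmt2a window is chr9:44881290-44881539 on the minus strand, the Mllt3 window chr4:88033408-88033657 on the minus strand, and the Men1 window chr19:6334729-6334978 on the plus strand.
Kmt2a: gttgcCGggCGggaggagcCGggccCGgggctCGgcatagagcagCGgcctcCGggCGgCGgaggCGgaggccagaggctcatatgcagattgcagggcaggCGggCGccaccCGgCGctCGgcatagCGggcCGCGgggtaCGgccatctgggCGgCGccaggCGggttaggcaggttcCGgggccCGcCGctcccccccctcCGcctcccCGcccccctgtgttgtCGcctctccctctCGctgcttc
Mllt3: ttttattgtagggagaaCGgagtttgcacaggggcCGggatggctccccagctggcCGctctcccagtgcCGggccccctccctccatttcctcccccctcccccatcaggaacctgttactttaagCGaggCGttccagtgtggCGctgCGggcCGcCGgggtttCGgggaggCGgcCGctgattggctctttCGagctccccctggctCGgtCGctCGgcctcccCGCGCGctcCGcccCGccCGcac
Men1: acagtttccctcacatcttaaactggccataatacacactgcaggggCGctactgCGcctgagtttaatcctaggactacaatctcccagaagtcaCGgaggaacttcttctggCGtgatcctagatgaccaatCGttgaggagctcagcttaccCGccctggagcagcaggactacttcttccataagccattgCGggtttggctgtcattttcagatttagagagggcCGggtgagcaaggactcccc

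The Kmt2a window held 29 CG, more than 93.2% of the 32817 windows of this length, and the Mllt3 window held 23, more than 86.7%. The Men1 window held 8, more than 57.0%, and that of Dot1l, which did not pass the test, held 44, more than 99.5%. The median over all windows was 6. Dense CG thus stood before genes that rose and before one that was not called. On both strands, TGACAG (a MEIS motif) matched once before Men1 and once before Dpy30 and occurs in 15.9% of all windows. TGATNNAT (a HOX-PBX motif, in 7.69% of windows) and TGANTCA (an AP-1 motif, in 6.75%) had no match in the 7 windows.

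Kmt2a (ENSMUSG00000002028, chr9:44803355-44881296, minus strand, GRCm38), the gene of MLL1, stood at 796, 867, 808 and 876 normalised counts in NA1 to NA4. In WT1 to WT4 it stood at 566, 629, 420 and 560. Each NA library exceeded each WT library, and WT3 was the lowest of all. The means were 837 ± 40.6 in NA and 544 ± 88.0 in WT libraries (SD, n = 4 per genotype). The log2 difference was 0.63 (SE 0.117, 95% interval 0.39 to 0.88) with an adjusted p of 0.00225 in limma. It was 0.52 without WT3 and 0.63 without NA4 and WT4, with an adjusted p of 0.0301 in limma for the latter. Kmt2a has the longest mRNA of the 10 genes, at 16.47 kb, and with the trend of change on transcript length removed the log2 difference was 0.52. The gene overlaps the antisense gene AC061963.1 and, on its own strand, Gm48314, and neither has a row of its own in the table.

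Kmt2b (ENSMUSG00000006307, chr7:30568858-30588726, minus strand), which encodes the paralogous enzyme MLL2, stood at 218, 173, 296 and 190 normalised counts in NA1 to NA4 and at 194, 309, 255 and 218 in WT1 to WT4. The libraries of both genotypes were interleaved, with WT2 highest and NA2 lowest. The log2 difference was -0.16 (SE 0.183, 95% interval -0.56 to 0.23), with an adjusted p of 0.568 in limma.

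The balance of the paralogues was compared within each library as a ratio of normalised counts + 1, where library scaling nearly cancels. The ratio of Kmt2a to Kmt2b was 3.65, 4.99, 2.72 and 4.59 in NA1 to NA4 and 2.90, 2.03, 1.64 and 2.56 in WT1 to WT4. NA3 fell below WT1, so the groups overlapped. On the log2 scale the ratio averaged 1.96 ± 0.392 in NA and 1.16 ± 0.363 in WT libraries (SD, n = 4 per genotype), a difference of 0.80. A two-sided exact permutation test over the 70 assignments of libraries gave p = 0.0571, or 0.114 adjusted over the 2 ratios compared, where 0.0286 is the smallest p this design allows. The difference in ratio thus did not pass the threshold.

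Men1 (ENSMUSG00000024947, chr19:6334979-6340891, plus strand), the gene of menin, stood at 214, 346, 254 and 249 normalised counts in NA1 to NA4 and at 304, 347, 314 and 284 in WT1 to WT4. NA1, NA3 and NA4 lay below every WT library and NA2 lay among them. The log2 difference of -0.25 (SE 0.145, 95% interval -0.56 to 0.06) did not pass the test, with an adjusted p of 0.250 in limma.

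Psip1 (ENSMUSG00000028484, chr4:83455680-83486459, minus strand), the gene of the menin partner LEDGF, stood at 930, 1158, 836 and 1109 normalised counts in NA1 to NA4. The WT1 to WT4 values were 584, 601, 560 and 637. Every NA library was above every WT library, and the NA libraries were spread more widely. The means were 1008 ± 151 in NA and 596 ± 32.5 in WT libraries (SD, n = 4 per genotype). The log2 difference of 0.75 (SE 0.109, 95% interval 0.51 to 0.98) was the largest of the 10 genes and had an adjusted p of 0.000415 in limma, or 0.00822 without NA4 and WT4. With the trend of change on GC content removed, Kmt2a had the largest difference at 0.66 and Psip1 stood at 0.61. Psip1 yields a long isoform, which binds menin, and a short one that lacks the menin-binding part, and the gene totals do not separate them. It also overlaps Snapc3 on the opposite strand, which averaged 168 normalised counts, and whether counting used strand is not given in the sources used here.

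**Figure D1:**
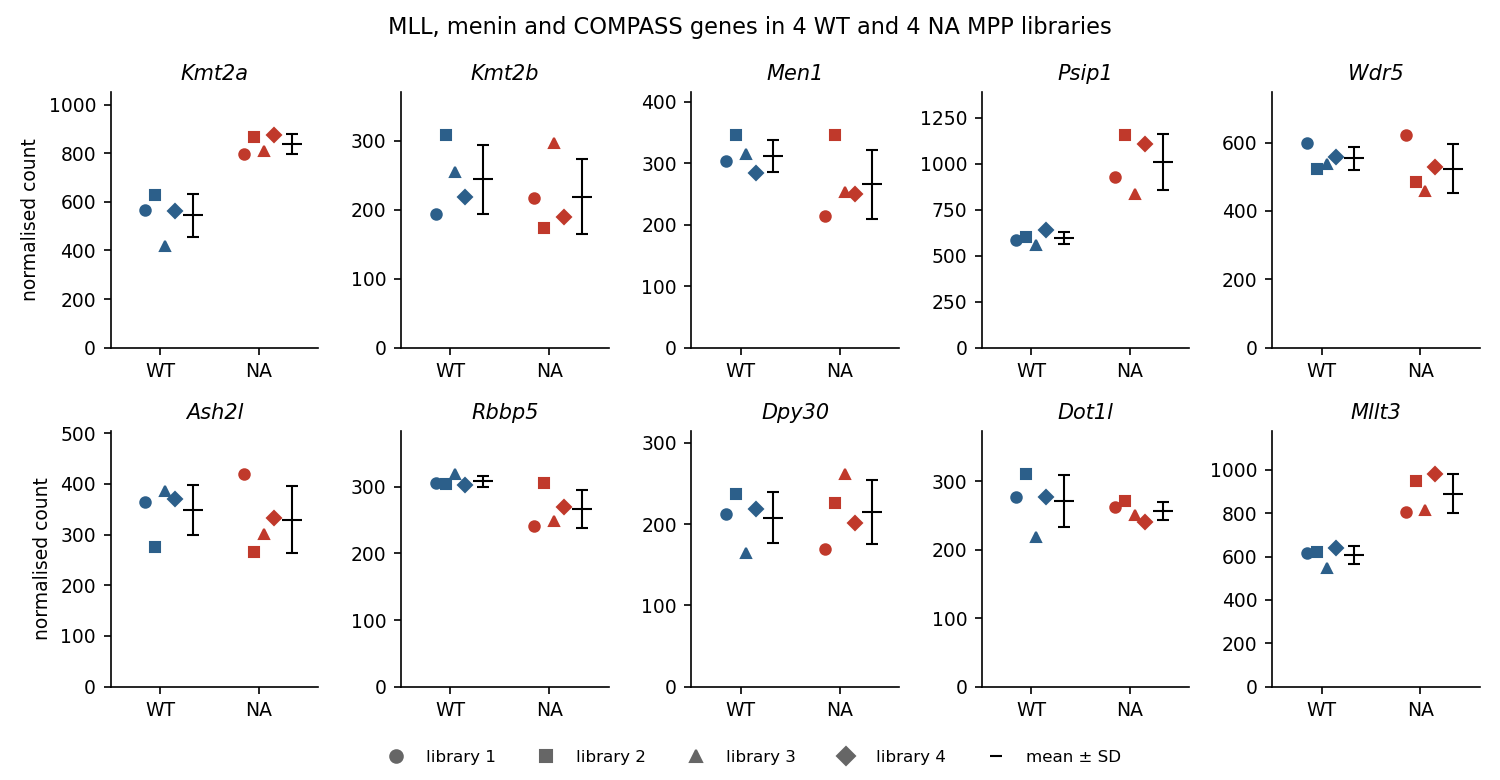
Normalised count of each of the 10 genes (1 panel per gene, linear vertical axis) in the WT (blue) and NA (red) libraries; marker shape gives the library number, and the bar and whiskers are the mean and SD of 4 libraries. The red points lie above all blue points for Kmt2a, Psip1 and Mllt3 and are interleaved with blue points or overlap their range for the other 7 genes.

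The 4 core subunits of COMPASS did not pass the test, and their log2 differences ran from -0.22 (Rbbp5) to 0.04 (Dpy30). Wdr5 (ENSMUSG00000026917, chr2:27515157-27536535, plus strand), the scaffold that binds the catalytic subunit, stood at 624, 484, 460 and 529 normalised counts in NA1 to NA4 and at 598, 522, 536 and 558 in WT1 to WT4. The highest and lowest values were both NA libraries. Its log2 difference was -0.09 (SE 0.110, 95% interval -0.32 to 0.15), with an adjusted p of 0.619 in limma.

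Rbbp5 (ENSMUSG00000026439, chr1:132477365-132505659, plus strand), which with Ash2l activates the catalytic domain, stood at 242, 305, 248 and 270 in NA1 to NA4. In WT1 to WT4 it stood at 306, 305, 320 and 303, a narrow range. NA2 lay within the WT range and the other NA libraries below it. The log2 difference was -0.22 (SE 0.116, 95% interval -0.46 to 0.03), with an adjusted p of 0.212 in limma.

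Ash2l (ENSMUSG00000031575, chr8:25815996-25847694, minus strand), which pairs with Rbbp5 and binds Dpy30, stood at 420, 265, 300 and 332 normalised counts in NA1 to NA4 and at 365, 276, 386 and 369 in WT1 to WT4. The genotypes overlapped widely, and both ends of the range were NA libraries. Ash2l differed by -0.09 on the log2 scale (SE 0.152, 95% interval -0.42 to 0.23), with an adjusted p of 0.706 in limma.

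Dpy30 (ENSMUSG00000024067, chr17:74299474-74323944, minus strand), a small subunit needed for H3K4 methylation in blood stem cells, stood at 169, 227, 262 and 202 normalised counts in NA1 to NA4 and at 213, 237, 164 and 218 in WT1 to WT4. The libraries were interleaved, with NA3 highest and WT3 lowest. A log2 difference of 0.04 (SE 0.163, 95% interval -0.31 to 0.39) had an adjusted p of 0.888 in limma. Each of the 4 intervals includes 0, and each bounds the change of its own gene only.

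Dot1l (ENSMUSG00000061589, chr10:80755206-80795461, plus strand), which encodes the only known H3K79 methyltransferase, stood at 262, 272, 251 and 241 normalised counts in NA1 to NA4 and at 278, 311, 219 and 278 in WT1 to WT4. All NA libraries lay inside the WT range. NA and WT MPPs differed by -0.07 on the log2 scale (SE 0.130, 95% interval -0.35 to 0.21), with an adjusted p of 0.740 in limma.

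Mllt3 (ENSMUSG00000028496, chr4:87769925-88033364, minus strand), whose product AF9 binds DOT1L and is known for maintaining blood stem cells, stood at 807, 949, 817 and 983 normalised counts in NA1 to NA4. It stood at 616, 623, 548 and 639 in WT1 to WT4. NA and WT libraries did not overlap. The means were 889 ± 89.9 in NA and 606 ± 40.4 in WT libraries (SD, n = 4 per genotype). The log2 difference was 0.55 (SE 0.0977, 95% interval 0.34 to 0.76), with an adjusted p of 0.00183 in limma, or 0.0301 without NA4 and WT4. With the trend of change on GC content removed, the difference for this 41.4% GC mRNA was 0.40. Its paralogue Mllt1, which encodes ENL, averaged 50.1 ± 36.2 in NA and 46.8 ± 10.8 in WT libraries. The Mllt3 to Mllt1 ratio, also of normalised counts + 1, was 33.2, 22.9, 7.84 and 28.9 in NA1 to NA4 and 15.8, 14.2, 8.62 and 14.4 in WT1 to WT4. NA3 lay below every WT library and the other NA libraries above them. The log2 difference in this ratio was 0.66, with p = 0.257 in the two-sided exact permutation test and the same value after adjustment over the 2 ratios. It was 1.12 without NA3, 0.42 without NA1 and 0.33 with the GC trend removed.

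**Figure D2:**
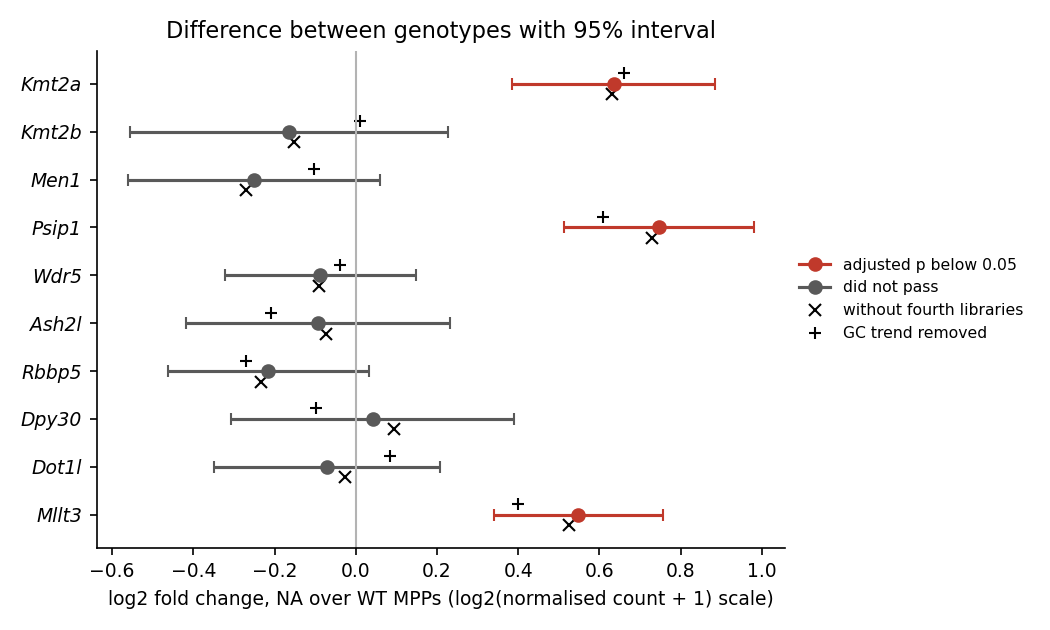
Log2 difference (NA minus WT) of the 10 genes with 95% intervals from limma, red where the adjusted p is below 0.05; crosses give the difference without NA4 and WT4 and plus signs that with the GC trend removed. The intervals of Kmt2a (0.39 to 0.88), Psip1 (0.51 to 0.98) and Mllt3 (0.34 to 0.76) lie above 0 and the other 7 include 0.

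Levels were compared between genes per kb of the longest annotated transcript, as means of the normalised counts per kb. In WT MPPs Dpy30 was highest at 264, followed by Wdr5 at 192, Psip1 at 183, Men1 at 104, Mllt3 at 99.9, Ash2l at 94.3, Rbbp5 at 91.1, Dot1l at 39.9, Kmt2a at 33.0 and Kmt2b at 28.8. The ranges over WT libraries separated Dpy30 from Wdr5, Psip1 from Men1 and Rbbp5 from Dot1l, and the other neighbours in this order overlapped. In NA MPPs Psip1 came first at 310, above Dpy30 at 272 (overlapping), and Mllt3 at 147 lay clear of Ash2l at 88.9. Kmt2a at 50.8 lay clear of Rbbp5 at 78.7 on one side and of Dot1l at 37.7 on the other. Per kb, the core subunits and adaptors thus stood above the 3 methyltransferases in WT MPPs. These 3 have the longest transcripts of the 10 genes (Kmt2a 16.47 kb, Kmt2b 8.469 kb, Dot1l 6.808 kb), and Dpy30 the shortest (0.789 kb). The part of transcript length in this order was not tested. In NA MPPs Kmt2a stood apart from Dot1l and from Kmt2b at 25.9.

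**Figure D3:**
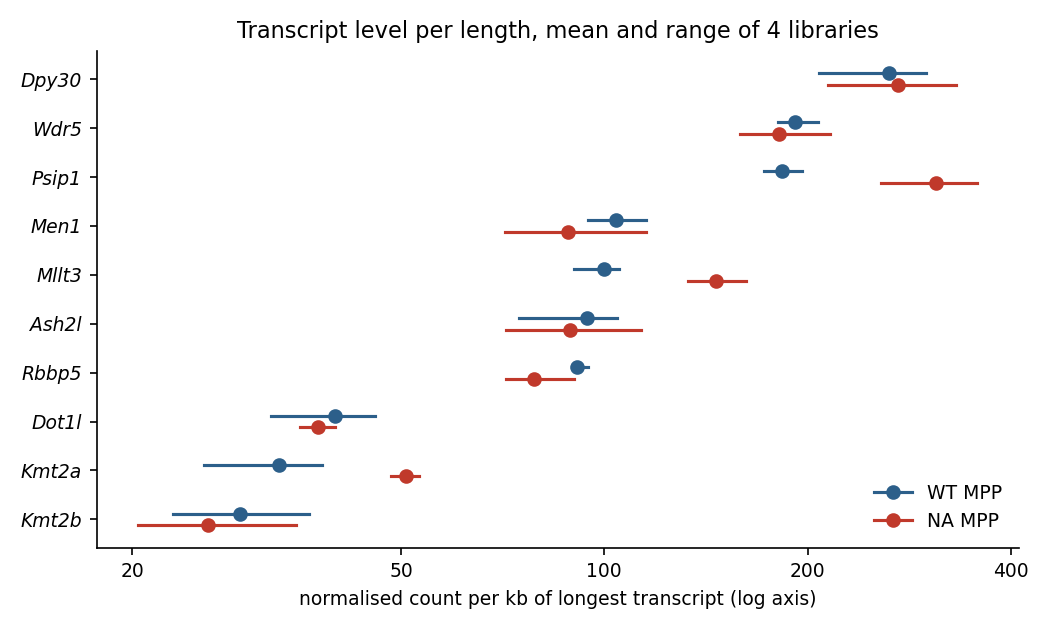
Normalised count per kb of transcript for the 10 genes on a log axis, with the mean and the range of 4 libraries for WT (blue) and NA (red). The means run from 28.8 (Kmt2b) to 264 (Dpy30) in WT MPPs and from 25.9 (Kmt2b) to 310 (Psip1) in NA MPPs.

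The genes nearest to a member in profile were sought by the root-mean-square difference of centred log2 values over the 8 libraries, among 11450 genes. Kmt2a lay nearest to Ddx10 (0.063), Nipbl (0.071), which encodes the cohesin loader, and Eif2s2 (0.077). Psip1 lay nearest to Mpp6 (0.087), Map4k3 (0.087) and Rab8b (0.092), and Men1 to Ubqln4 (0.092), Prorsd1 (0.094) and Rgs14 (0.10). These likenesses are descriptions over 8 libraries of 2 genotypes.

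Lists of partner genes were described by counts and medians from the same fit. Of 15 other COMPASS genes, all tested, 2 rose and 0 fell, with a median log2 difference of 0.09 beside -0.01 over all genes tested. The shares over all genes were 10.1% higher and 7.87% lower, near the share of this list. The count of COMPASS partners called was 4 without NA1, 1 without NA2, WT1 or WT4, and 0 without NA4 or without NA4 and WT4. Setd1b, the catalytic subunit of a SET1 complex, stood at 73.7, 75.2, 69.2 and 68.5 normalised counts in NA1 to NA4 and at 28.4, 38.5, 55.8 and 38.2 in WT1 to WT4. The groups did not overlap, and the log2 difference was 0.86 (SE 0.246, adjusted p 0.0273 in limma). Bod1l, a SET1B partner that guards replication forks, averaged 319 ± 45.0 in NA and 214 ± 25.9 in WT libraries, a log2 difference of 0.57 (SE 0.139, adjusted p 0.0119 in limma). Neither call held without NA4 and WT4, at an adjusted p of 0.171 for Setd1b and 0.107 for Bod1l in limma. Setd1b was also not called without NA2 (0.0626), NA4 (0.0707), WT1 (0.0794) or WT4 (0.0751), and Bod1l without NA4 (0.0541) or with a replicate block and the GC trend removed (0.0529), all adjusted p in limma. Setd1a, which encodes the paralogue of Setd1b, had the lowest difference of the list at -0.40 (adjusted p 0.146 in limma) and did not pass.

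Kdm6a, an X-linked H3K27 demethylase of the MLL3/4 complexes, averaged 151 ± 28.5 in NA and 162 ± 7.73 in WT libraries (adjusted p 0.645 in limma). Its Y-linked homologue Uty stood at 22.4 to 62.0 normalised counts in NA libraries and at no more than 1.14 in WT libraries. Kdm6a and Uty together summed to 131, 232, 219 and 208 normalised counts in NA1 to NA4 and to 168, 156, 155 and 169 in WT1 to WT4. NA1 lay below all WT libraries and the other 3 NA libraries above them.

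Of 14 DOT1L and elongation partners 12 were tested, 1 rose and 1 fell, with a median of 0.08, beside 10.1% higher and 7.87% lower over all genes. The count called was 6 without NA1, and 1 without NA2, NA3, NA4, WT1 or WT4 and without both NA4 and WT4. Aff3, which encodes a scaffold of an elongation complex, stood at 743, 714, 688 and 666 normalised counts in NA1 to NA4 and at 989, 907, 1046 and 988 in WT1 to WT4. All NA libraries were below all WT libraries. It fell by 0.48 on the log2 scale (SE 0.0848, adjusted p 0.00170 in limma), and was also called without NA4 and WT4, at an adjusted p of 0.0402 in limma. Ccnt1, the cyclin T1 subunit of P-TEFb, averaged 789 ± 172 in NA and 505 ± 183 in WT libraries with overlap between them, a log2 difference of 0.68 (adjusted p 0.0383 in limma). That call was lost in 11 of 21 alternative settings, with adjusted p up to 0.144 in limma, reached without NA4 and WT4.

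Of 7 menin and H3K36 partners, 1 rose and 0 fell, with a median of 0.05, beside 10.1% higher over all genes, and 2 were called without NA1. Jund, an AP-1 factor that binds menin, stood at 185, 187, 158 and 85.0 normalised counts in NA1 to NA4 and at 66.6, 96.3, 71.7 and 58.6 in WT1 to WT4. NA4 lay below WT2. The log2 difference was 1.02 (SE 0.252, adjusted p 0.0133 in limma), and 1.18 without NA4 and WT4 (adjusted p 0.0130 in limma). The dissociation response list, which holds other AP-1 genes, was higher in NA libraries, and its part in the Jund difference was not tested. Setd2, the enzyme that trimethylates H3K36, the mark LEDGF reads, had the lowest difference of this list at -0.06 (adjusted p 0.745 in limma).

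Of 17 known target genes of MLL and menin 15 were tested, and 10 rose and 0 fell, with a median of 0.56, beside 10.1% higher and 7.87% lower over all genes. Without NA4 and WT4, 8 were called. This list was chosen with results of these data known, so its count is not independent evidence of direction. Hoxa5 had the highest difference at 1.62, and Hoxa10 and Hoxa9 stood at 1.22 and 0.68, although reads of the fusion's homeodomain part and of the endogenous gene cannot be told apart for Hoxa10. Eya1, a phosphatase and transcriptional co-activator, averaged 430 ± 67.7 in NA and 228 ± 37.5 in WT libraries, a log2 difference of 0.92 (adjusted p 0.00101 in limma). Cdk6, a cell cycle kinase of progenitors, had a difference of 0.86, and Mef2c, a myeloid and lymphoid transcription factor, one of 0.49. Without NA4 and WT4 these 6 genes were also called, with adjusted p in limma from 0.000329 (Hoxa5) to 0.0355 (Cdk6). Mecom, which encodes the stem cell factor EVI1, had the lowest difference at -0.05 (adjusted p 0.791 in limma) and did not pass.

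**Figure D4:**
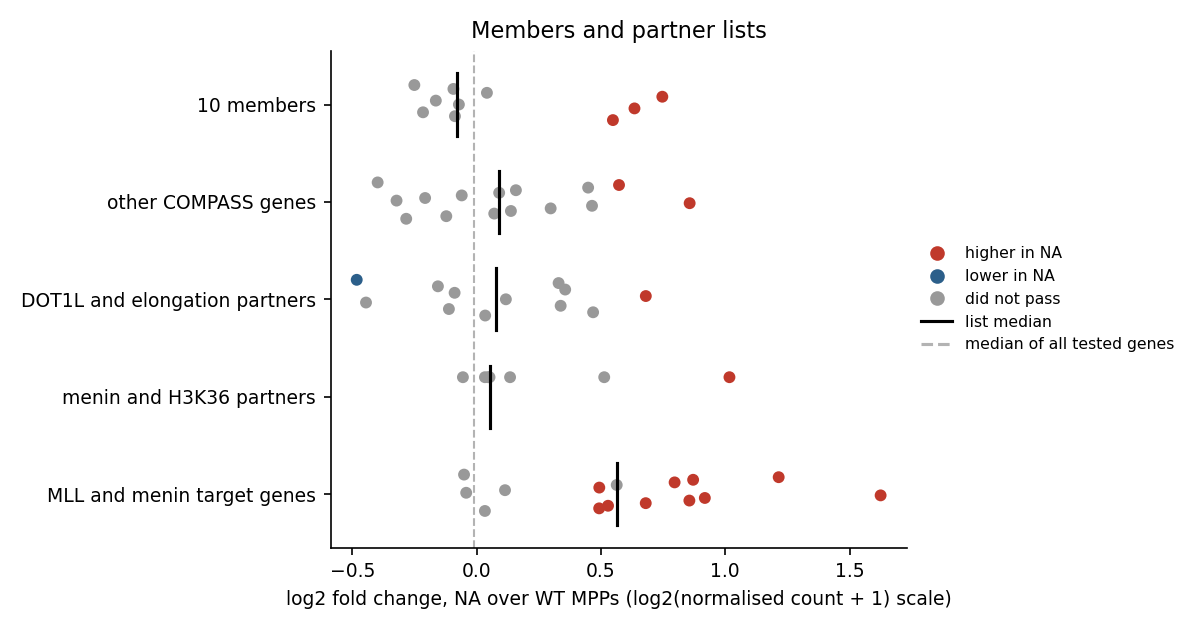
Log2 difference (NA minus WT) of each tested gene among the 10 genes and the 4 partner lists, red where the adjusted p in limma is below 0.05, with the list median as a black bar and the median of all tested genes dashed at -0.01. The medians are -0.08 for the 10 genes, 0.09, 0.08 and 0.05 for the complex partners and 0.56 for the target genes.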

How the data were processed

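RNA was measured in 8 libraries, 4 per genotype. The processing notes of the authors name bcl2fastq, RSEM, DESeq2 and mm10 (versions, annotation and strand use not given in the sources used here). Although the deposited file carries raw counts in its name, in each library 98.3% to 98.8% of values above 0.5 lay within 0.05 steps of whole multiples of 1 number (0.888 to 1.18), so the deposited values were treated as a signal, read here as estimated reads divided by 1 size factor per library. Depth estimated from these steps was 3876893 to 4916987 reads. The smallest member value was 144 estimated reads.

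log2(value + 1) was fitted with limma 3.58.1 (variance trend; R 4.3.3) across the 11451 genes with at least 10 in at least 4 libraries, with no covariates. Ratios within libraries, of value + 1, were compared by exact permutation. Gene positions and lengths came from GENCODE on GRCm38. The members and lists were chosen with earlier results of these data known. Named genes were the 10 members and, per partner list, the genes with the highest and lowest differences and up to 6 called genes of smallest p. The other called target genes, outside this rule, were Hoxa7, Cdkn1b, Myb and Zeb2. Alternatives covered pseudocount, filter, scaling, variance trend, GC, length, depth, a replicate block and left-out libraries. Scripts were tested on simulated data.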

Additional observations from a re-analysis of the deposited data

Results flagged for a closer look

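Of 54 groups of 4 library values examined, 1 held a value far from the other 3, where chance gives about 2.7. It was the estimated depth of NA4, 3887847 reads, beside 4909391 to 4916987 in the other NA libraries. WT2 and WT3 had depths of 3960950 and 3876893. With depth class (deep or shallow) as a covariate, Kmt2a, Psip1 and Mllt3 were still the called genes among the 10. The shallow class held NA4, WT2 and WT3, so NA4 was its only NA library.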

How the results depend on the processing

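Kmt2a, Psip1 and Mllt3 were called, and the other 7 members were not, under all 21 alternatives run, with limma adjusted p up to 0.0301, 0.0112 and 0.0301. Over all genes 2053 were called (1152 higher, 901 lower), against 515 (370 and 145) without NA4 and WT4 and, for those lower, 595 without the variance trend. Leaving out 1 library gave 1106 to 2141 called, 656 to 1160 higher and 450 to 996 lower, lowest without NA4. Calls that were higher made up 56.1%, 71.8% without NA4 and WT4 and 41.3% with total scaling. Some uncalled members changed sign: Kmt2b 0.0113, Dot1l 0.0834 and Dpy30 -0.0982 with the GC trend removed, with or without the block, Dpy30 -0.027 with total scaling, and, leaving out 1 library, Ash2l -0.217 to 0.00375 and Dpy30 -0.068 to 0.151. Mecom, no member, ran from -0.115 to 0.0236 in the same way. The cause was not tested. The labels do not say that library numbers pair the samples, and the values do not settle it. Same-number correlations were 0.0874, 0.0271, 0.0131 and 0.158, beside -0.0943 to 0.101 for other numbers. Not every library was closest to its own number. A replicate block gave 2004 called genes and the same 3 members. The planned edgeR and DESeq2 tests on reads recovered from the step of each library were not run, so the calls rest on limma alone.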
